A study of Caenorhabditis elegans with 4 samples.

Results

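Chromosome III carried 1042 of the 6095 peaks in the combined list of FOS-1::GFP binding regions, made from Caenorhabditis elegans larvae at the fed L1 stage (the first after hatching), and all 1042 are described here. They were taken by position, as every peak listed on chromosome III, without a threshold on any peak's values. The chromosome itself was chosen with earlier results of these data known. The ChIP group held 2 libraries, precipitated with a goat antibody against GFP, and the input group held 2 libraries of chromatin that was not precipitated. All 4 came from hermaphrodites of strain OP304, grown on bacteria at 20 °C and fixed in 2% formaldehyde. Every library therefore carried the mutation unc119(ed3) and the bombarded transgene wgIs304, which holds fos-1 tagged with TY1, EGFP and FLAG and a rescuing unc119 gene. The antibody recognises EGFP, and no library of an untagged strain was used here. What was mapped is thus the tagged protein made from the transgene, in 1 strain and at 1 stage, in whole larvae. The labels do not say whether the replicates were separate cultures.

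FOS-1 belongs to the Fos family of transcription factors. Fos proteins bind DNA as pairs through a basic region and a leucine zipper, usually with a partner of the Jun family, and the pair is known as AP-1. In worms FOS-1 has been studied most in the anchor cell, which needs it to break through the basement membrane when the vulva forms, a step that comes later than the stage examined here. The autosomes of this species have a gene-dense middle with little recombination, flanked by arms with more repeats and more recombination. Chromosome III holds the Hox genes lin-39, mab-5, egl-5 and ceh-13, which pattern the body axis, and also unc-119 itself, while fos-1 lies on V and jun-1, which encodes a Jun protein, on II. Which of these genes, if any, a peak touched was not analysed here, because the gene table at hand is of another build than the peaks (WBcel235 against WormBase WS220). For the same reason no DNA sequence under a peak is shown.

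The ChIP libraries had 2961912 to 3763795 uniquely mapped 36-bp reads and the input libraries 2762470 to 2799514. The combined list was called by the authors on the merged ChIP reads, and each replicate list on 1 ChIP library. It follows that the combined list and the replicate lists share reads. The replicate 1 list held 767 peaks on III and the replicate 2 list 423, replicate 2 being the ChIP library with fewer usable reads. Absence from a list means only that the site was not called from that list's reads. Whether depth was the reason was not tested.

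Peaks were dense on chromosome III in each list. It had 75.7 peaks per Mb in the combined list, against 75.3 on I, 64.3 on II, 59.4 on IV and 38.9 on V. In the replicate 1 list III had 55.7 peaks per Mb, and the other autosomes had 46.2 (II), 44.4 (IV), 41.02 (I) and 19.5 (V). In the replicate 2 list III had 30.7, and the others had 25.1 (II), 21.6 (IV), 16.5 (I) and 8.13 (V). Chromosome III was thus first of the 5 autosomes in all 3 lists, but its nearest neighbour in that order changed: it was I in the combined list, by a difference of under 1 peak per Mb, and II in both replicate lists. Set against the mean of the other 4 autosomes, III was higher by 16.2 peaks per Mb in the combined list (59.5 on average on the others; exact permutation test over the 5 autosomes, two-sided, p = 0.4). With 1 chromosome against 4 this test cannot give less than 0.2, so it cannot reach 0.05 for any measure below. Chromosome V differed from the rest by more than III did.

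The same order held when covered bases were counted in place of peaks. Peaks covered 386 kb of III, or 2.80% of its length, against 2.75% of I, 2.39% of II, 2.14% of IV and 1.54% of V. Set against protein-coding genes per chromosome, a count that needs no coordinates, III had 39.4 combined peaks per 100 genes (2642 genes in RefSeq's WBcel235 table), and the others had 39.5 (I), 31.6 (IV), 28.5 (II) and 16.3 (V). In the replicate lists the gap between III and I was wider on this scale, with 29.03 peaks per 100 genes on III and 21.5 on I in replicate 1, and 16.0 on III and 8.62 on I in replicate 2. III and I were thus nearly equal in the combined list, while III stood above I in either single library.

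**Figure D1:**
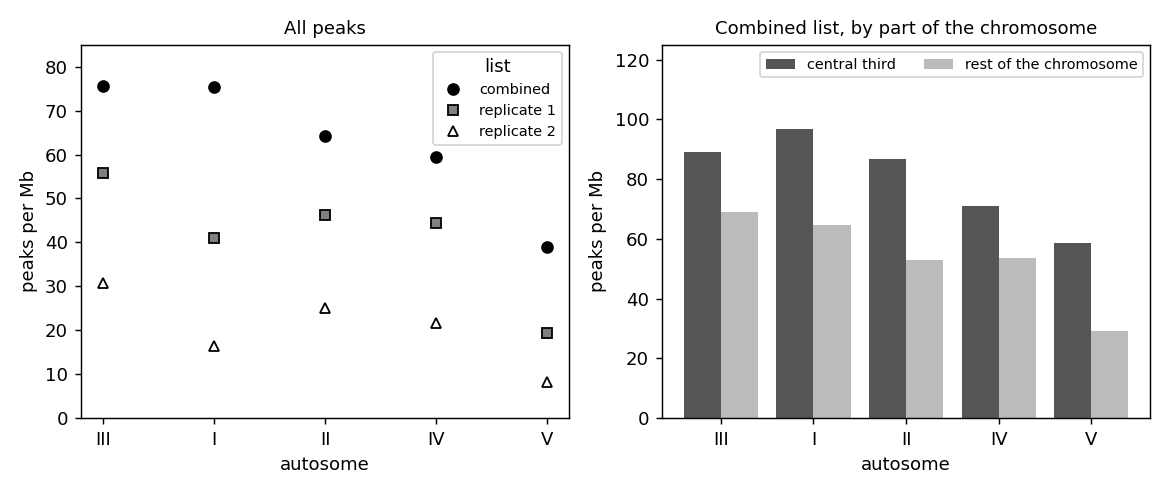
Peaks per Mb on each autosome (left, 1 point for each of the 3 lists) and, for the combined list, in the centre of each autosome (33.3% to 66.7% of its length) and in the rest of it (right, bars from 0). III is first in each list at left (75.7, 55.7 and 30.7 peaks per Mb), and at right it has 68.9 peaks per Mb outside its centre, the highest of the 5 grey bars.

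In the combined list the density of III was high on its flanks as well as in its middle. With the centre taken as the part between 33.3% and 66.7% of the length, III had 89.1 combined peaks per Mb there and 68.9 in the rest of the chromosome, a ratio of 1.29. The centre of I was denser (96.8 peaks per Mb) and that of II almost as dense (86.7), but outside the centre I had 64.6, IV 53.6, II 53.1 and V 29.1 peaks per Mb. The ratio of centre to flanks was 1.29 on III, against 1.33 on IV, 1.498 on I, 1.63 on II and 2.01 on V. In replicate 1 III also had the lowest ratio, at 1.32, against 1.38 on IV and 1.67 to 2.13 on the others. In replicate 2 this order did not hold: the ratio was 1.28 on III, against 1.12 on IV, 1.27 on II, 1.62 on I and 1.696 on V. Of the 1042 peaks on III, 409 (39.3%, exact 95% interval 36.3 to 42.3, counting error only) lay in the centre, against 39.9% to 50.1% on the other autosomes (exact permutation p = 0.4). Without V this share was 39.3% on III against a mean of 42.6% on the other 3. The flanks of III differed from each other, with 74.7 peaks per Mb in the right part and 63.2 in the left part. Both replicate lists had the right part above the left as well, at 53.4 against 47.3 peaks per Mb in replicate 1 and at 28.97 against 27.2 in replicate 2, where the difference was 8 peaks.

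Along the chromosome, 27 whole bins of 500 kb held from 16 to 78 combined peaks, with a median of 36 (quartiles 28.5 and 43.5). The fullest was the bin from 5.5 to 6 Mb, with 78 peaks in the combined list, 55 in replicate 1 and 27 in replicate 2. It held 7.49% of the peaks of III, 2.17 times the median bin, and 6.12% of its bases lay in a peak. The next bin in order, from 8.5 to 9 Mb, held 56 combined peaks (48 in replicate 1, 22 in replicate 2). The bins from 3.5 to 4 Mb and from 7 to 7.5 Mb had 52 combined peaks each, and that from 9.5 to 10 Mb had 48. All 5 of these bins lay between 3.5 and 10 Mb, and together they held 286 peaks, 28.3% of those in whole bins. The corresponding share for the 5 fullest bins was 25.4% on I, 26.5% on II, 21.3% on IV and 26.0% on V, which have more bins.

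The replicates placed the fullest regions alike and ranked the bins similarly, though not in the same order. Across the 27 bins the counts of replicate 1 and replicate 2 had a Pearson correlation of 0.86 and a Spearman correlation of 0.85, a description of bins that share the chromosome's mappability and gene density. Replicate 1 had its maximum, 55 peaks, in the same bin as the combined list. Replicate 2 had its maximum of 28 peaks in the bin from 7 to 7.5 Mb, 1 more than in the bin from 5.5 to 6 Mb. The bin from 4 to 4.5 Mb, with 44 combined peaks, tied for rank 3 in replicate 1 (39 peaks) and for rank 4 in replicate 2 (21 peaks). The bin from 3.5 to 4 Mb, tied for rank 3 in the combined list, had rank 7 in replicate 1 with 34 peaks and rank 11 in replicate 2 with 17. Of its 52 combined peaks 36.5% overlapped no replicate peak, against 28.5% over all of III and 35.8% of the whole list. The median q of the 52 was 0.00035, against 5.49e-05 over all of III.

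The emptiest bin lay from 2 to 2.5 Mb, where 16 peaks were listed in the combined list, 13 by replicate 1 and 5 by replicate 2, the fewest of any whole bin in the combined and replicate 2 lists. Its neighbour (2.5 to 3 Mb) had 20 combined peaks, and the bin from 1 to 1.5 Mb had 21. These 3 bins lay in the left flank, where the widest gap of the chromosome ran for 136 kb from 2173637 to 2309621 and the next, of 130 kb, from 1288907 to 1418705. Sparse bins were not confined to that flank. Right of the middle, the bin between 9 and 9.5 Mb listed 22 peaks in the combined list, 13 by replicate 1 (tied for the fewest) and 7 by replicate 2, and it held the third widest gap, of 124 kb from 9269328 to 9393316. No gap on III exceeded 136 kb in the combined list, whereas the widest gap was 200 kb on IV, 201 kb on I, 207 kb on II and 540 kb on V. In replicate 1 the widest gap was 186 kb on III, against 220 kb on I and more on the rest. In replicate 2 III was not the lowest, with 352 kb against 351 kb on I. No bin of III held 10 or fewer combined peaks, as was also the case on I and IV, while II had 3 such bins of 30 and V had 9 of 41. The sparse bins differed in how often their peaks recurred. In the bin from 2.5 to 3 Mb, 12 of 20 peaks (60.0%) recurred in both replicates, the highest share of any bin, and the median −log10 q of 5.77 was the highest as well. The share was 31.3% in the bin from 2 to 2.5 Mb (5 of 16 peaks) and 28.6% in that from 1 to 1.5 Mb (6 of 21). In that from 9 to 9.5 Mb it was 27.3% (6 of 22). These shares, from few peaks, were below the bin median of 37.8% but close to the 29.1% of the whole list.

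**Figure D2:**
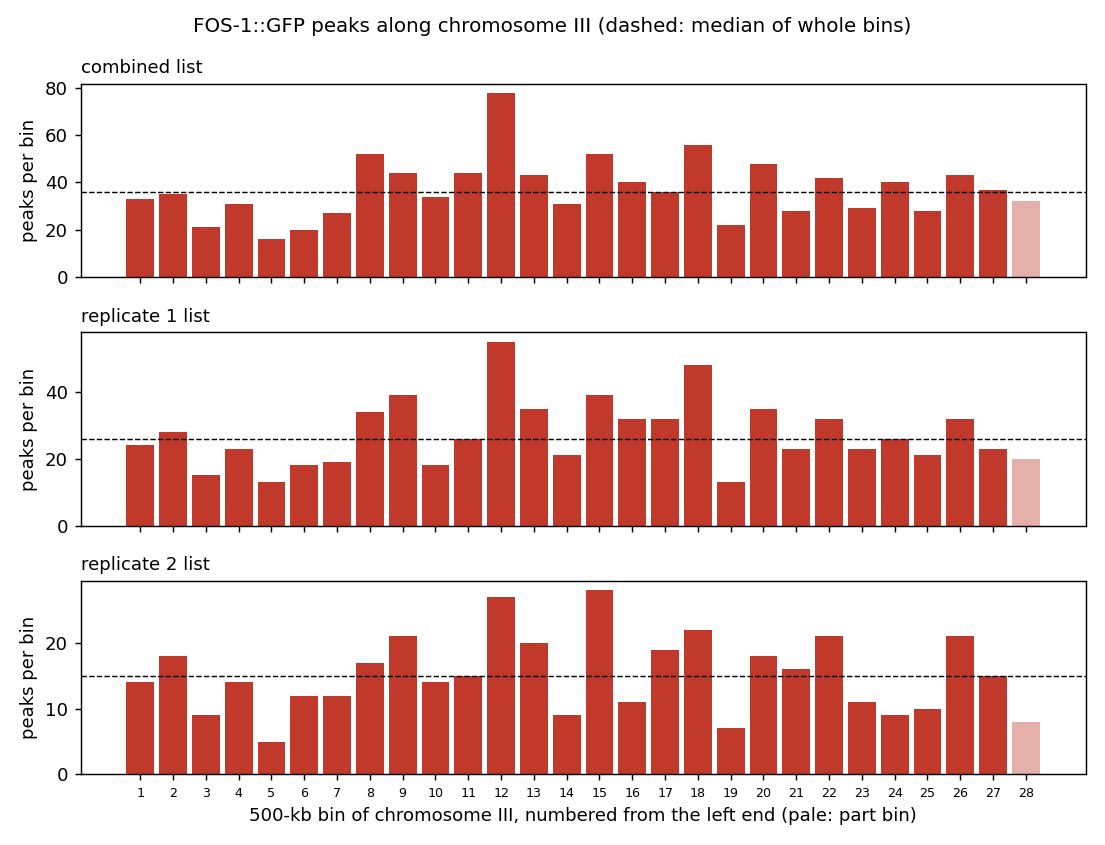
Number of peaks in each 500-kb bin of chromosome III, numbered from its left end, in the combined list and in each replicate list. Bars start at 0, the dashed line is the median over the 27 whole bins, and bin 28 is a part bin. Bin 12 (5.5 to 6 Mb) reaches 78, 55 and 27 peaks, and in replicate 2 bin 15 (7 to 7.5 Mb) is higher by 1, at 28.

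The bin from 5.5 to 6 Mb was filled throughout rather than at a single spot. Its 5 windows of 100 kb held 12, 16, 17, 18 and 15 combined peaks, in order along the chromosome. In replicate 1 the same windows held 8, 9, 17, 9 and 12 peaks, and in replicate 2 they held 5, 6, 7, 6 and 3. Neighbours were close together there: 35 of its 77 gaps (45.5%) were 2000 bp or shorter, against 25.6% in the median bin. Its peaks were not unusually strong, with a median −log10 q of 4.02 (4.26 over all of III). Only 4 of its 78 peaks were in the strongest decile of the combined list, a smaller share than the 11.04% over all of III. The count also depended on where bins began and on how neighbours were counted. With bins shifted by 250 kb the fullest bin of III held 60 peaks, against up to 62 on another autosome. With only the stronger 50% of peaks by q kept it held 39, against up to 41 on another autosome. With neighbours no more than 2000 bp apart joined, the fullest bin of III held 43 regions, against up to 43 on another autosome. In the unshifted bins the fullest bin was 78 on III, against 70 on I, 56 on II, 50 on IV and 44 on V.

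Peaks on III were of ordinary width. The median was 317 bp in the combined list (quartiles 212 and 437), against 312 bp on I, 313 on II, 316 on IV and 311 on V. In the replicate lists the medians on III were 309 bp (replicate 1) and 303 bp (replicate 2), below those of I and V in the same lists (345 and 347 bp in replicate 1, 348 and 337 bp in replicate 2). The order by width thus changed with the list, and the medians of the 5 autosomes lay within 6 bp of each other in the combined list (exact permutation p = 0.2, the smallest possible). Wide peaks were about as frequent on III, where 32 (3.07%) exceeded 1000 bp, as on the other autosomes together, where 126 did (3.18%). The widest did not reach the widths seen elsewhere: the maximum was 2635 bp on III, against 2905 bp on IV, 6431 on II, 7002 on I and 36723 on V. At the narrow end, 46 peaks on III (4.41%) were shorter than a 36-bp read, against 5.37% over the whole list and 5.20% to 6.63% on the other autosomes. Of these 46, 36 overlapped no peak in either replicate list, against 200 of 229 such narrow peaks on the other autosomes together. The lowest q among the 46 was 9.93e-06.

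By strength, the peaks of III were close to those of the other autosomes, and none was at the very top of the combined list. The authors' q value is the expected share of false calls at that rank, and a peak with a lower q is called stronger here, within a list. Peaks of like q were not found in both replicates equally often on each autosome, as given by decile below. The median −log10 q of the combined peaks was 4.26 on III, against 4.23 on I, 3.99 on II, 3.98 on IV and 3.67 on V (exact permutation p = 0.4). Of the peaks on III, 115 (11.04%) belonged to the decile with the lowest q, against 10.0% of the list by construction. The same decile held 123 peaks of I, 92 of II and 58 of V, and IV lay between I and II. III held 17.1% of all combined peaks, and its share of the 50 to 500 strongest lay between 14.0% and 21.0%. No peak of III was among the 20 strongest. Of the 50 strongest 7 (14.0%) were on III, against 9 on II, 6 on IV, 5 on I and 4 on V. Of the 100 strongest 21 were on III (21.0%), and the other autosomes had 15 (II), 14 (I), 11 (IV) and 8 (V). Among the 200 strongest III and I were level, with 41 on III (20.5%) and 40 on I, and among the 500 strongest I was ahead, with 92 on III (18.4%) and 105 on I. In the single libraries 24 of the 100 strongest peaks of replicate 1 and 25 of those of replicate 2 lay on III, which held 19.0% of the whole replicate 1 list and 21.3% of the whole replicate 2 list. The largest −log10 q on III was 76.3, while it was 98.7 on V, 100 on IV, 188 on I and 210 on II. The order of the medians was not the same in each list: III was first in replicate 1 (3.74, against 3.47 to 3.66) and in the middle in replicate 2 (3.28, against 3.16 to 3.57).

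The strong peaks were spread along the chromosome. Each of the 28 bins of III, the part bin included, held at least 1 of the 115 peaks of the strongest decile. The highest counts were 10 of 56 peaks in the bin from 8.5 to 9 Mb, the second fullest, and 8 of 43 from 12.5 to 13 Mb. As a share of the bin's own peaks, the sparser bin from 1.5 to 2 Mb had more, with 7 of 31. Over all of III the share was 11.04%. Their median width was 569 bp, and 21 of the 115 were wider than 1000 bp, out of 32 such peaks on all of III. Weak peaks made up a slightly smaller share of III than of the rest: 302 (28.98%) had a q of 0.001 or more, against 32.3% on the other autosomes together.

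**Figure D3:**
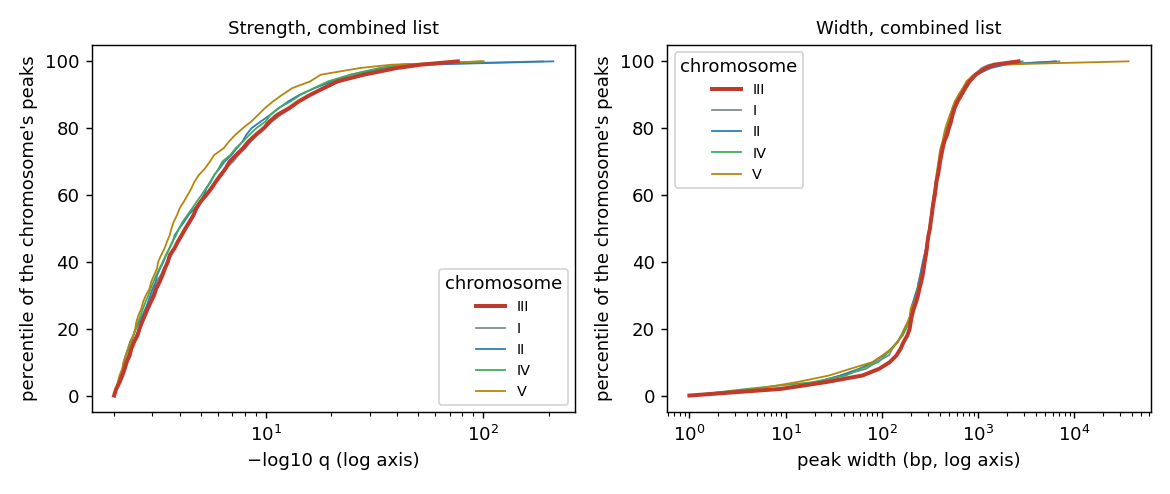
Cumulative distributions of −log10 q (left) and width (right) of the combined peaks on each autosome, both on log axes, with the percentile of the chromosome's own peaks on the vertical axis. The curves of III (median −log10 q 4.26, median width 317 bp) run close to those of I, II and IV, and they end earlier on the right, at a −log10 q of 76.3 and a width of 2635 bp.

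The 15 peaks of III with the lowest q were all found in both replicates. So were 114 of the 115 peaks of III in the strongest decile, and 98.1% of that decile on the other autosomes together. The 15 ranked 26 to 75 in the whole combined list and lay in 10 different bins. The strongest, from 3867034 to 3867789 (756 bp), had a q of 4.99e-77 in the combined list. The overlapping peak had a q of 1.89e-55 in replicate 1 and of 2.7e-36 in replicate 2, and these peaks ranked 22 in all of replicate 1 and 14 in all of replicate 2. It narrowed to 456 bp in replicate 2, against 748 bp in replicate 1. It was the peak of III that ranked highest in both single libraries, and it lay in the bin from 3.5 to 4 Mb, where the median q was above that of all of III.

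The second strongest belonged to a tight group. It ran from 8801228 to 8802673 (1446 bp, q = 6.61e-77) and had a neighbour only 222 bp away, from 8799686 to 8801005 (1320 bp, q = 9.34e-52), itself the twelfth strongest of III. A further member of the 15, from 8795482 to 8796186 (705 bp, q = 7.84e-50), lay on the same side. In replicate 1 these 3 peaks had q values of 9.69e-49, 1.29e-36 and 1.02e-28, and in replicate 2 they had 2.44e-30, 4.22e-15 and 1.18e-18. All 3 were called as separate peaks in each list, and no list holds any pair of peaks on III closer than 200 bp. Another pair of the 15 lay together at 1920929 to 1921872 (944 bp, q = 1.37e-48) and 1924872 to 1925669 (798 bp, q = 2.25e-56), in the bin from 1.5 to 2 Mb.

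Other strong peaks of III stood alone. The third strongest, from 4795970 to 4796542 (573 bp, q = 1.64e-70), had its nearest neighbour 10066 bp away, and its q was 2.58e-52 in replicate 1 and 2.27e-30 in replicate 2. The fourth, from 10758946 to 10759433 (488 bp, q = 9.84e-62), had its nearest neighbour 10668 bp away, and its q was 1.9e-40 in replicate 1 and 1.73e-27 in replicate 2. The fifth, from 7854399 to 7854903 (505 bp, q = 4e-59), was 6540 bp from its neighbour. In all, 10 of the 15 had another peak within 2000 bp. The 5 without one were 488 to 917 bp wide, while the widths of all 15 ran from 484 to 2635 bp with a median of 756.

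The widest peak of III, from 13462695 to 13465329 (2635 bp), was also the sixth strongest (q = 8.41e-58). It was called as a pair of peaks in each single library, of 961 and 1391 bp in replicate 1 and of 360 and 1067 bp in replicate 2. Its best q in the single libraries, 2.05e-25 in replicate 1 and 7.29e-11 in replicate 2, was the weakest of the 15. The next widest, from 12368151 to 12370362 (2212 bp, q = 2.88e-18), was likewise 2 peaks in replicate 1 and 3 in replicate 2. The one after it, from 5758460 to 5760391 (1932 bp, q = 2.1e-27), was 2 peaks in each replicate list. For these 3 intervals the combined width was therefore that of several single-library peaks joined.

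**Figure D4:**
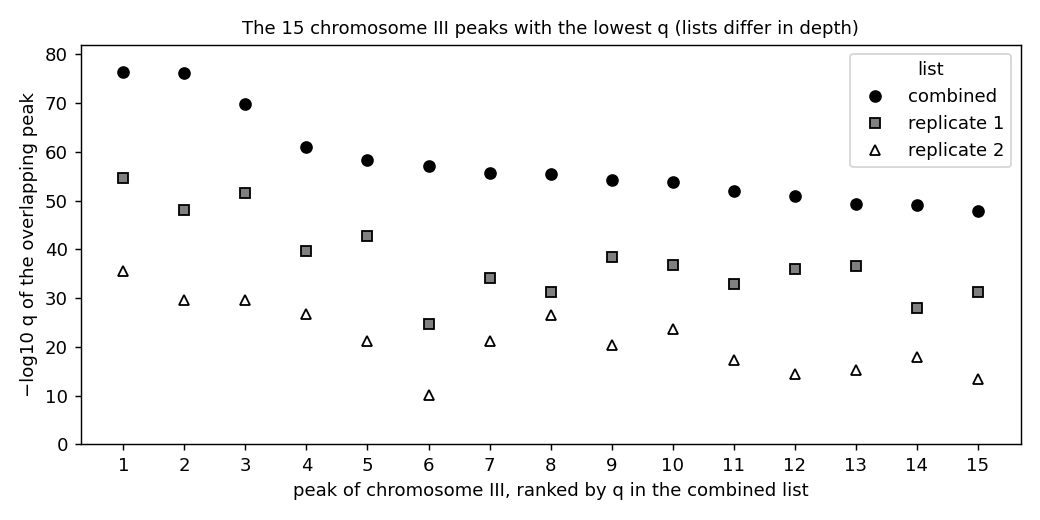
−log10 q of the 15 peaks of chromosome III with the lowest q in the combined list, ordered by that q, with the value of the overlapping peak in each replicate list (the lowest q where there were 2). All 15 have a peak in both replicate lists, as do 98.1% of the strongest-decile peaks on the other autosomes together (not plotted). The sixth, the widest peak of III, has the lowest points in both replicates.

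Neighbouring peaks lay close together on III about as often as on the other autosomes in the combined list, and the share was highest on III in replicate 2. Of the 1041 gaps between combined peaks of III, 296 (28.4%) were 2000 bp or shorter, against 30.7% on I, 28.8% on II and on IV and 24.7% on V (exact permutation p = 1). In replicate 1 the share was 24.0% on III, against 24.6% on II, 22.4% on IV, 21.7% on I and 12.8% on V. In replicate 2 it was 19.2% on III, against 6.51% on V and 11.7% to 14.7% on I, II and IV (exact permutation p = 0.2, the smallest possible). Short gaps become more frequent as peaks become denser, and III was also the densest autosome in replicate 2, at 30.7 peaks per Mb. The part of density in this difference was not tested. Very short gaps went the other way: 6.44% of combined gaps on III were 500 bp or shorter, against 6.94% to 8.98% on the other autosomes.

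Joining peaks no more than 2000 bp apart left 746 regions on III, or 54.2 per Mb, against 52.2 on I, 45.8 on II, 42.3 on IV and 29.3 on V. Of these, 564 were single peaks and 182 were runs, which held 478 peaks (45.9% of those on III). There were 25 runs of 4 or more peaks, with 126 peaks between them. The longest run on III had 8 peaks, as on I, against 9 on IV, 11 on V and 12 on II.

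Of the longest runs of III, 3 lay in its fullest bin or at its edge. The longest, from 5835450 to 5845865, had 8 peaks of 260 to 965 bp. Its last peak, from 5845297 to 5845865, was the only one found in both replicates (q = 2.68e-15), 3 were found in replicate 1 only, 1 in replicate 2 only and 3 in neither. The run from 5751991 to 5760391 had 7 combined peaks, 8 peaks in replicate 1 and 4 in replicate 2, and none of the 7 was without a replicate counterpart. The run from 5498997 to 5506770 also had 7 combined peaks, with 6 called in replicate 1 and 4 in replicate 2. In contrast, the run from 11677278 to 11684919 had 7 combined peaks of 84 to 219 bp, with q values from 0.000745 to 0.00962, of which 6 overlapped no replicate peak. Lack of overlap was common at such q values: in deciles 7 to 10 of the combined list by q, 47.7% to 87.5% of the peaks of III overlapped none. Toward the left end, the run from 24389 to 31922 had 6 peaks, all with a counterpart in at least 1 replicate and 4 with one in both. In that first bin, from 0 to 0.5 Mb, 16 of 32 gaps (50.0%) were 2000 bp or shorter, the highest share of any bin although its 33 peaks were fewer than the median.

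The share of peaks of III that recurred in both single libraries lay nearest to the shares of II and IV. Of the 1042 combined peaks, 381 (36.6%, exact interval 33.6 to 39.6) overlapped peaks of both replicates, against 29.1% of the whole list. The share was 33.4% on IV, 33.2% on II, 20.3% on I and 18.7% on V. III was thus first, but only just above IV (exact interval 30.6 to 36.4) and II (30.3 to 36.3), and by more above I and V. The exact permutation test over the 5 autosomes gave p = 0.6. These intervals cover counting error only and were not used to tell chromosomes apart. Against II and IV alone the difference was 3.23 percentage points. A further 335 peaks of III (32.1%) overlapped a replicate 1 peak only, 29 (2.78%) a replicate 2 peak only and 297 (28.5%) none, against 35.8% with none in the whole list.

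These classes differed in width and strength on III, in the same order as on the other autosomes together. Peaks found in both replicates had a median width of 425 bp and a median q of 6.83e-11. Those found in replicate 1 only had 292 bp and a q of 0.000119, those in replicate 2 only 281 bp and 0.000473, and those in neither 200 bp and 0.0027. On the other autosomes together, peaks found in both had medians of 441 bp and 3.13e-12, and those in neither 205 bp and 0.00251. The combined list was called on the reads of both libraries, so that strength and recurrence are not independent measures.

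In the 2 deciles of strength where the autosomes differed most, deciles 3 and 4, the values of III also lay nearest to those of II and IV, and no test over peaks was made. In decile 3 of the combined list by q, 87 of 113 peaks on III (77.0%) were found in both replicates, against 77.1% on IV, 65.4% on II, 32.9% on V and 24.1% on I. In decile 4 the share was 50.0% on III (49 of 98 peaks), against 50.8% on II, 34.5% on IV, 7.81% on V and 1.79% on I. In decile 1 it was 99.1% on III and 98.1% on the other autosomes together. From decile 8 on, no peak of III was found in both replicates (0 of 97, 0 of 91 and 0 of 88 peaks, exact upper limits 3.73%, 3.97% and 4.11%). The same held on the other autosomes together (0 of 379, 0 of 401 and 0 of 397 peaks).

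**Figure D5:**
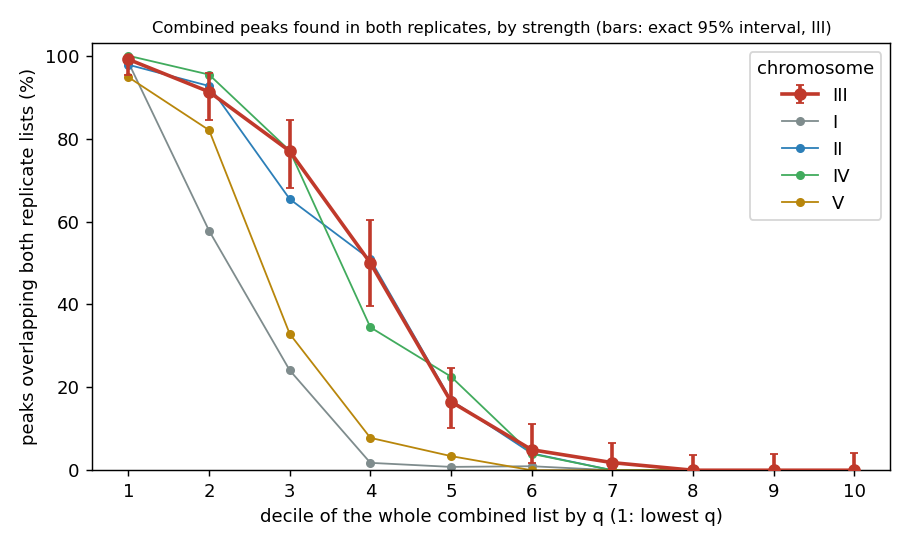
Share of the combined peaks of each autosome that overlapped peaks of both replicate lists, by decile of the whole combined list ranked by q. The line of III, with exact 95% intervals, runs with those of II and IV: in decile 4 it is at 50.0%, against 50.8% on II, 34.5% on IV, 7.81% on V and 1.79% on I.

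The single libraries were also set directly against each other. Of the 423 replicate 2 peaks on III, 387 (91.5%, exact interval 88.4 to 94.0) overlapped a replicate 1 peak, against 88.0% on II, 90.6% on V, 93.4% on IV and 95.2% on I. Of the 767 replicate 1 peaks on III, 385 (50.2%, 46.6 to 53.8) overlapped a replicate 2 peak, against 46.2% on II, 44.9% on IV, 37.7% on I and 37.6% on V. The chromosome had 1.81 replicate 1 peaks for each replicate 2 peak, the lowest ratio of the autosomes, with II at 1.84, IV at 2.06, V at 2.39 and I at 2.49. Within replicate 1, the shared peaks of III had a q of 8.24e-07 at the median, against 0.00162 for the unshared ones.

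The recurrence of peaks also varied along III. Among whole bins the share found in both replicates ran from 22.5% (9 of 40 peaks, from 11.5 to 12 Mb) to 60.0%, with a median of 37.8%. It was 50.0% in the bin from 7 to 7.5 Mb (26 of 52 peaks) and 52.8% in the bin from 8 to 8.5 Mb (19 of 36), but 30.8% in the fullest bin (24 of 78). The bin from 11.5 to 12 Mb, which had the lowest share, also had the lowest median −log10 q of the whole bins, at 3.33, and held the run of 7 weak peaks described above. The fullest bin of III was therefore not the one in which the largest share of peaks recurred, although its 24 recurrent peaks were the second highest number, after the 26 of the bin from 7 to 7.5 Mb.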

How the data were processed

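Read counts per library, raw whole numbers, are those of the deposited sample table. Peaks came from 3 deposited lists that name PeakSeq as caller, per the file headers and source column. The aligner and the PeakSeq version are not given in the sources used here. Strength was described and ranked within a list by the q values deposited by the authors. Reads were mapped to WS180 per the deposited sample table, and positions were lifted to WS220, per the file headers. In that step the internal structure of 3 combined, 2 replicate 1 and 1 replicate 2 peaks of III changed, and they were kept at their new positions. Which input a replicate list was called against is not stated.

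Protein-coding genes per chromosome came from RefSeq's table. Overlap meant at least 1 bp. Bins were assigned by peak midpoint, and the end of the last peak in any list stood for chromosome length. Each measure on III was set against the mean of the 4 other autosomes by an exact permutation test over chromosomes, two-sided, threshold 0.05. Peaks were not treated as replicates, and no test over peaks was made. Intervals of shares are Clopper-Pearson 95% intervals and cover counting error only. Regions named are the 15 peaks with the lowest q, the 3 widest, the longest run, and the 5 fullest and 3 emptiest whole bins. Other regions named (further runs, gaps and bins, and the peaks in a run) were chosen after their values were seen. The set of peaks, the measures and the tests were chosen with earlier results of these data known. The overlap and joining code was tested on 6095 simulated intervals, of which all 6095 were put in their true replicate class. The simulated intervals were evenly spaced and none was split into several replicate peaks, unlike some real ones. The permutation code was tested on made-up values for the 5 autosomes. Computations ran in Python 3.11.15 with scipy 1.17.1, numpy 2.4.6 and pandas 2.3.3, and plots in matplotlib 3.10.9.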

Additional observations from a re-analysis of the deposited data

How the results depend on the processing

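Of 50 alternatives to the 7 measures on III, 40 kept their direction against the other autosomes or, for the fullest bin, stayed within 1.5 times. These include all 7 of the peak density (30.7 to 75.7 peaks per Mb), all 7 of the share found in both replicates (34.3% to 67.3%) and all 8 of the central share (38.7% to 57.5%, the last for the central 50% of the length), though in the replicate 2 list II and IV had lower shares than III. Another autosome also had a lower central share than III with the stronger 50% of peaks by q kept (39.4% against 41.2%) and after joining (38.3% against 38.7%). With a single replicate list the median width was 303 to 309 bp, below the mean of the other autosomes. The median −log10 q was 3.28 to 3.74, and in the replicate 2 list it was below their mean. The fullest bin held 28 to 55 peaks. Without peaks narrower than a read the median width was 323.5 bp, equal to the mean of the others. The share of short gaps was below the others with a limit of 500 bp (6.44%), with V left out (28.4%) and with I and V left out (28.4%). By construction the fullest bin held fewer peaks, 39 when only the stronger 50% by q were kept (second to another autosome, at 41) and 43 after joining (level with another). For the other changes the cause was not tested. Leaving out V, or I and V, was chosen after seeing the data. No alternative could reach the threshold, since at most 5 chromosomes were compared. The share found in both replicates has no value with a single replicate list, and the gap share none after joining. Reference chromosome lengths were not run. No paired analysis was possible because ChIP and input were compared by the authors when they called peaks, and no value per library and region was used.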

Other observations

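Some peaks of the single libraries on III had no combined peak. Of the 767 replicate 1 peaks on III, 40 overlapped no combined peak, with a median q of 0.00552, and of the 423 replicate 2 peaks 6 did not, with a median q of 0.00205. On the other autosomes together, 123 of 2505 replicate 1 peaks and 11 of 1178 replicate 2 peaks had none. The share with a combined peak was 94.8% on III and 95.1% on the other autosomes together in replicate 1, and 98.6% on III and 99.1% on the others in replicate 2.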
